A study of Mus musculus with 6 samples.

Results

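The mouse mitochondrial genome carries genes for 13 mRNAs, 2 rRNAs and 22 tRNAs, and the annotation of GRCm38 gives each of them a symbol that begins with mt-. All genes with such a symbol were taken, which gave 36 of the 33084 genes of the count table: 13 mRNAs, 2 rRNAs and 21 tRNAs. The phenylalanine tRNA gene mt-Tf was not analysed here. The libraries were bulk RNA of whole forebrains dissected from mouse embryos 15.5 days post coitum. The mutants, 3 libraries, had the genotype Dyrk1a<DlxCre/+>, in which the kinase gene Dyrk1a is inactivated conditionally in the Dlx5 domain, the territory where GABAergic neurons of the ventral forebrain arise. The controls, 3 libraries, were labelled wt, and whether they carried the Cre transgene or a conditional allele is not given. The dissected forebrain also holds cells outside the Dlx5 domain, and the wild-type allele in the genotype means that 1 copy of Dyrk1a is taken to remain. Nothing in the labels ties the libraries to litters, and p-values therefore measure the spread between these samples, part of which may be technical. The study compared the 2 genotypes to learn how the forebrain transcriptome changes when Dyrk1a is inactivated in that domain.

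Mitochondrial DNA is a small circle that is transcribed from both strands into long precursors. Most genes lie on the transcript of the heavy strand. The tRNAs stand between the mRNAs and rRNAs and are cut out of the precursor, which releases the other RNAs. The mRNAs encode core subunits of the respiratory chain (complexes I, III and IV) and of ATP synthase, the rRNAs form the mitochondrial ribosome, and all proteins that copy, transcribe and process this genome come from the nucleus. Neurons draw most of their ATP from oxidative phosphorylation, and the embryonic forebrain moves towards it as progenitors become neurons. Pieces of mitochondrial DNA have also been copied into the nuclear chromosomes during evolution, and such copies can be nearly identical to their source.

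The libraries held between 25360030 and 28339650 counts in mutants and between 24646616 and 38315004 in controls. Levels are given in CPM, counts-per-million scaled by the trimmed mean of M values (TMM). The forebrain label was checked with 15 forebrain markers, all of which passed the filter on low counts, and their summed level ran from 798 to 874 CPM in mutants and from 686 to 870 CPM in controls. The library labelled replicate 3 stood apart in both genotypes. The summed level of 10 proliferation markers was 1881 CPM in mutant replicate 3 and 1801 CPM in control replicate 3, against 1037 to 1134 CPM in the other 4 libraries. The embryonic globin gene Hbb-y, picked after its values were seen, stood at 322 and 321 CPM in these 2 libraries, against 27.8 to 42.5 CPM in the others. The summed level of 10 erythroid markers, Hbb-y among them, was 836 CPM in mutant replicate 3 and 757 CPM in control replicate 3. In the other libraries that sum ran from 602 to 672 CPM, so the rest of the list did not rise with Hbb-y. Dyrk1a itself had 186, 159 and 182 CPM in mutants and 169, 183 and 180 CPM in controls, a log2 fold change of -0.02 ± 0.09 (SE), and the groups overlapped. Its count covers the whole gene and does not single out the deleted part, so it does not check the labels.

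Of the 13 mitochondrial mRNAs, the 5 with the fewest counts per length were those that also exist nearly whole in the nuclear genome. To measure that, each mitochondrial gene was divided into all its windows of 50 bases, and each window was looked up in the annotated transcripts of nuclear genes. The share was complete for mt-Co2, which encodes a subunit of cytochrome c oxidase (complex IV), with 100% of its windows in nuclear transcripts. The shares were 99.9% for mt-Co3 (complex IV), 99.5% for mt-Atp6 (ATP synthase), 98.8% for mt-Nd4l and 98.0% for mt-Nd3 (both complex I). For mt-Nd4 (complex I) the share was 62.2%, and for mt-Co1, the catalytic subunit of complex IV, 51.1%. The 6 other mRNAs had at most 8.19%, and both rRNAs at most 1.04%. Genes annotated as pseudogenes that hold at least 100 bases of a member at 95% identity or more numbered 9, of which 7 lie in a row on chromosome 1 and 2 on chromosome 2. Gm13339 on chromosome 2 covers 510 bases of mt-Nd2 at 96.7% identity, although only 8.19% of the windows of mt-Nd2 had an exact match. The chromosome 1 copies span chr1:24611535-24616197 (GRCm38, reverse strand), a stretch of 4663 bases, and match the mitochondrial genome from base 6381 to base 11042, from within mt-Co1 to within mt-Nd4. In 5 of the 9 pseudogenes, among them Gm28661 (mt-Co2), Gm10925 (mt-Atp6) and Gm28437 (mt-Co3), no base differed from the mitochondrial gene.

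Stretches of 30 bases show how close these copies are. Capitals mark the bases that differ within a pair, and positions are counted from the first base of the mitochondrial gene. The first bases of mt-Co2 and of its copy on chromosome 1 are the same, and mt-Nd3 differs from its copy at a single position over 345 aligned bases (T3C).
mt-Co2: atggcctacccattccaacttggtctacaa
Gm28661: atggcctacccattccaacttggtctacaa
mt-Nd3: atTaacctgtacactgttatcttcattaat
Gm28438: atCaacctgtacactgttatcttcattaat

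The copy of mt-Co1 on chromosome 2, Gm13340, is full length (1545 bases) and 97.6% identical, and in the stretch shown 4 bases differ (G696A, T699C, G717A and C720T).
mt-Co1: taccaGcaTctgttctgattctttggGcaC
Gm13340: taccaAcaCctgttctgattctttggAcaT

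Neighbouring mitochondrial genes also share bases with each other. The last 43 bases of mt-Atp8 are the first 43 of mt-Atp6, and the last 7 of mt-Nd4l are the first 7 of mt-Nd4. The start codon of mt-Atp6, which lies inside mt-Atp8, and the 7 shared bases of mt-Nd4 are in capitals here. All sequences are those of GENCODE M21 transcripts on GRCm38.
mt-Atp6: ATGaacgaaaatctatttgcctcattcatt
mt-Nd4: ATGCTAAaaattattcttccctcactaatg

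The 5 mRNAs with nearly complete nuclear cover were close to absent from the counts. Together they held 413 counts over all 6 libraries, or 0.0666% of the 620355 counts of mitochondrial mRNAs. The 6 mRNAs with little sequence shared with annotated nuclear transcripts, mt-Atp8 among them, held 45.2%, and mt-Co1 and mt-Nd4 together 54.7%. Levels between genes are compared per length, as CPM per kilobase averaged over the 6 libraries. On that scale the 5 genes lay between 0.0291 (mt-Co2) and 3.40 (mt-Nd3), and the 6 genes with little shared sequence between 14.2 (mt-Nd6) and 627 (mt-Nd1). The nuclear copies were low as well: the 8 copies with a row in the table had 220 counts in all libraries together, 182 of them in Gm13340. The sources used here do not say how reads that match several places were counted, and its part in the low counts was not tested. The counts of these 5 genes, and part of those of mt-Co1 and mt-Nd4, are uncertain as levels of their RNA.

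**Figure D1:**
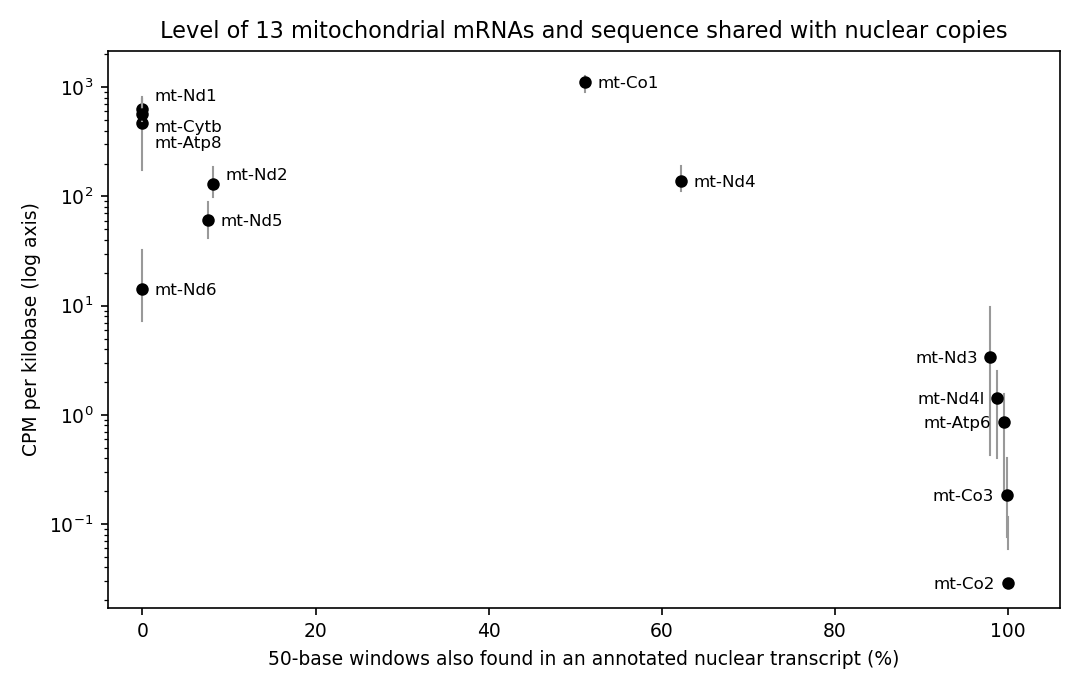
Level of the 13 mitochondrial mRNAs, as CPM per kilobase on a log axis, against the percentage of their windows of 50 bases that also occur in an annotated nuclear transcript. The 0% of mt-Atp8 is uncertain, because bases between annotated copies were not searched. Points are means over 6 libraries and grey lines span the libraries above 0; the 5 genes at 98.0% or more lie at 3.40 or lower, and the 8 other genes at 14.2 or higher.

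The gene mt-Co2 shows the size of the gap. It had 0 counts in all 3 mutants and 0, 1 and 3 counts in control replicates 1, 2 and 3. A count of 0 allows up to 3 counts, or 0.106 to 0.118 CPM in the mutant libraries and 0.0902 CPM in control replicate 1. By contrast mt-Co1, whose protein stands in the same complex, had 53098, 35682 and 53011 counts in mutants and 51132, 44434 and 68487 counts in controls. For mt-Co3 the counts were 5, 0 and 3 in mutants and 2, 5 and 12 in controls. Neither mt-Co2 nor mt-Co3 passed the filter on low counts, so they have no test.

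The mRNA mt-Atp8, for a small subunit of ATP synthase, lies between mt-Co2 and mt-Atp6 and was well counted, at 468 CPM per kilobase where mt-Atp6 had 0.861. No window of mt-Atp8 was found in an annotated transcript, but the 233 bases between the copies of mt-Atp6 and mt-Co2 on chromosome 1 belong to no annotated copy and were not searched, because only transcript sequences were used.

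Among the well-counted mRNAs some neighbours in the order per kilobase kept their places in all libraries and others did not. The highest was mt-Co1, at 1128 ± 191 CPM per kilobase in mutants and 1109 ± 101 in controls (SD, n = 3 each), above mt-Nd1 in 6 of 6 libraries with no overlap of their ranges. By CPM, not divided by length, mt-Co1 was the gene of rank 18 in the whole table. Next came mt-Nd1 (complex I) at 609 ± 146 in mutants and 645 ± 147 in controls, mt-Cytb, cytochrome b of complex III, at 534 ± 59.5 and 611 ± 141, and mt-Atp8 at 484 ± 271 and 451 ± 298 (mutants first in each pair). These 3 are not ordered beyond their spread: mt-Nd1 exceeded mt-Cytb in 5 of 6 libraries and mt-Cytb exceeded mt-Atp8 in 3 of 6. The complex I mRNAs mt-Nd4 (140 over all libraries) and mt-Nd2 (131) were likewise not separated over their full length, with mt-Nd4 above in 3 of 6. Divided by the windows not shared with nuclear transcripts instead, mt-Nd4 had 384 CPM per 1000 windows and mt-Nd2 had 150, so their order depends on the length used. Below them mt-Nd5 stood at 61.0 and mt-Nd6 at 14.2, each order holding in 6 of 6 libraries with no overlap.

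The complex I mRNAs thus differed widely although their proteins meet in 1 enzyme, from mt-Nd1 at 627 down to mt-Nd6 at 14.2 CPM per kilobase among those with little shared sequence. The gene mt-Nd6 is the sole mRNA of the opposite strand and faces the end of mt-Nd5 with 14 overlapping bases. The ratio of mt-Nd6 to mt-Nd5, per kilobase, was 0.192, 0.173 and 0.154 in mutants and 0.263, 0.363 and 0.161 in controls. The ratio was low in all 3 mutants, but control replicate 3 lay inside their range, so the groups overlapped. Whether the counting used strand is not stated, so in the overlap the reads of mt-Nd6 and mt-Nd5 may be mixed. Reads of the opposite strand over the rest of mt-Nd6 may also be in its count. The level of mt-Nd6 and its ratio to mt-Nd5 are uncertain to that extent.

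**Figure D2:**
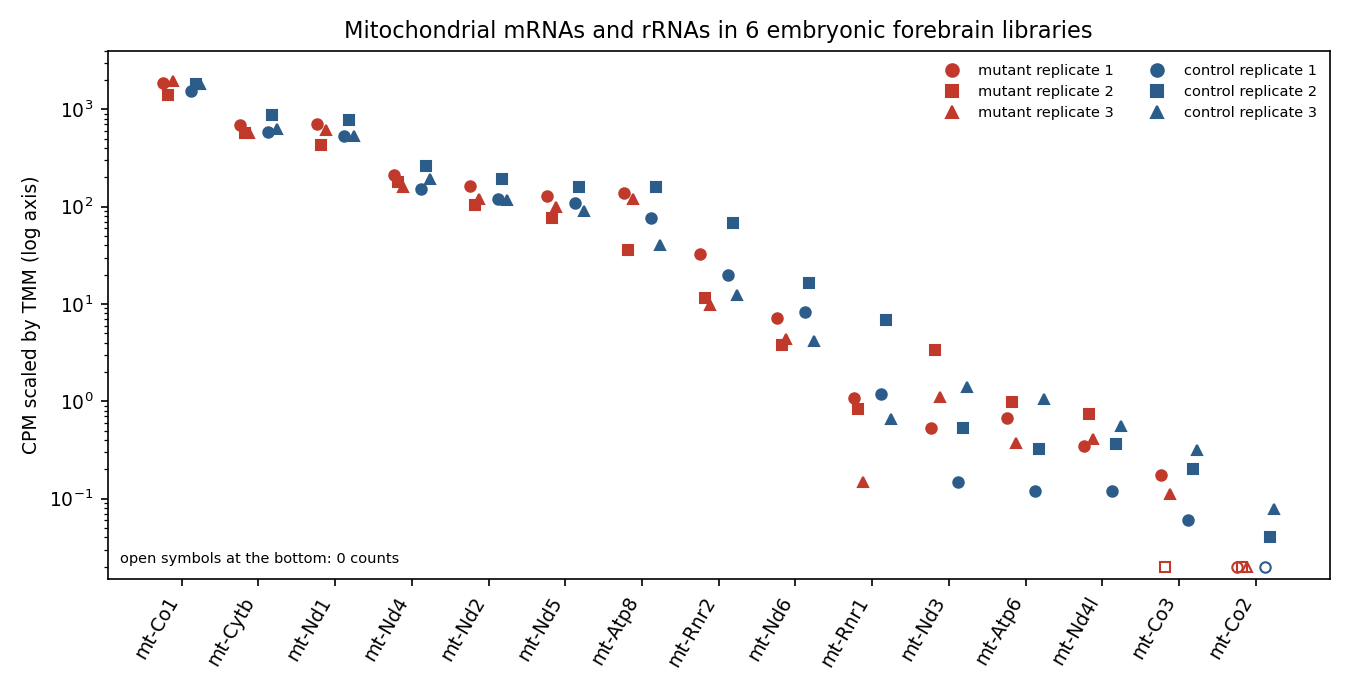
CPM scaled by TMM, on a log axis, of the 13 mitochondrial mRNAs and 2 rRNAs in each library, mutants to the left of controls, with 1 symbol per replicate number and open symbols for 0 counts. Control replicate 2 is the highest library for most of the abundant genes and mutant replicate 2 the lowest, and the 2 genotypes overlap for every gene with counts in both.

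Few counts fell on the rRNAs. Ribosomal RNA is the most abundant product of mitochondrial transcription in tissue, and the library kit, a ribosomal depletion of the Gold type, is designed to remove cytoplasmic and mitochondrial rRNA. The rRNA of the large ribosomal subunit, mt-Rnr2, was left at 32.3, 11.5 and 9.85 CPM in mutants and 19.9, 67.5 and 12.5 CPM in controls. That of the small subunit, mt-Rnr1, had 1.09, 0.827 and 0.148 CPM in mutants and 1.20, 6.85 and 0.659 CPM in controls. Control replicate 2 was the highest library for both, and both genes overlapped between genotypes. The ratio of mt-Rnr2 to mt-Rnr1 counts ran from 13.9 to 66.8 in mutants and from 9.85 to 19.0 in controls, so the leftover of the 2 rRNAs did not keep a fixed proportion. The molecule field of the labels reads polyA RNA instead, and the cause of the low rRNA counts was not tested. Such counts are not a level of rRNA in the tissue.

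The tRNAs, of 59 to 75 bases, had almost no counts: 422 over 21 genes and 6 libraries. The 5 highest by mean CPM held 86.0% of them. These were the tRNA genes for isoleucine (mt-Ti, 144 counts in all), methionine (mt-Tm, 94), tryptophan (mt-Tw, 75), threonine (mt-Tt, 27) and leucine (mt-Tl1, 23). The gene mt-Ti shares 2 bases with the end of mt-Nd1, and mt-Tw shares 2 with the end of mt-Nd2. The other 16 tRNAs had at most 6 counts in any library, and 2 of them had 0 in all. By strand, the 13 tRNAs of the forward strand held 390 counts and the 8 of the reverse strand 32. All 5 highest tRNAs lie on the forward strand. The median gene had 4 counts on the forward strand and 2 on the reverse strand. The forward genes mt-Td, mt-Tk, mt-Tg and mt-Tr (2, 1, 4 and 2 counts) lie within the stretch matched by the chromosome 1 copies. So does the reverse gene mt-Ts1, with 0 counts, and the 5 highest tRNAs lie outside it. The bases between those copies were not searched, and their part in the tRNA counts was not tested. Only mt-Ti, mt-Tm and mt-Tw passed the filter on low counts. Of the 18 untested tRNAs, the proline tRNA gene mt-Tp was named after its values were seen. It had 2, 2 and 1 counts in mutants and 6, 4 and 3 counts in controls. Its groups did not overlap, but by a narrow margin: 0.0787 CPM in mutant replicate 2 and 0.0791 CPM in control replicate 3. Groups also did not overlap for 6.89% of all tested genes, in either direction.

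Between genotypes none of the mitochondrial mRNAs and rRNAs separated. The 13 mRNAs together took 0.392%, 0.281% and 0.364% of all counts in mutant replicates 1, 2 and 3, and 0.313%, 0.426% and 0.339% in control replicates 1, 2 and 3. The means were 0.346% ± 0.0581 in mutants and 0.359% ± 0.0593 in controls (SD, n = 3 each). The lowest library was a mutant and the highest a control. Mutant replicates 1 and 3 lay above control replicates 1 and 3, so the groups overlapped. In whole tissue, fewer cells rich in mitochondria and less mitochondrial RNA per cell cannot be told apart.

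Counts of all genes were fitted with edgeR's quasi-likelihood test, mutant against control, and p-values were adjusted by Benjamini and Hochberg over 19616 tested genes. Of the 36 mitochondrial genes 16 passed the filter on low counts (11 mRNAs, 2 rRNAs and 3 tRNAs), and 20 did not. None of the 16 was called (adjusted p = 0.9999 for each), and of all tested genes 0, or 0%, were called. At an unadjusted p under 0.05 there were 0 of the 16 against 1.92% of all tested genes, and 0 of the 16 had groups that did not overlap, against 6.89% of all tested genes. DESeq2 and limma-voom also called 0 genes, with 1.33% and 2.00% of all genes and 0 of the 16 at an unadjusted p under 0.05. Of the 16, 10 had a log2 fold change below 0 and 6 above, where 52.5% of all genes lay below. The median was -0.08 over the 11 tested mRNAs and -0.01 over all tested genes. As a set the 16 genes were measured less precisely than most, with a median SE of 0.44 (log2) against 0.155 for all tested genes. The abundant mt-Co1 (0.131) and mt-Cytb (0.157) had an SE near the median of all tested genes.

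**Figure D3:**
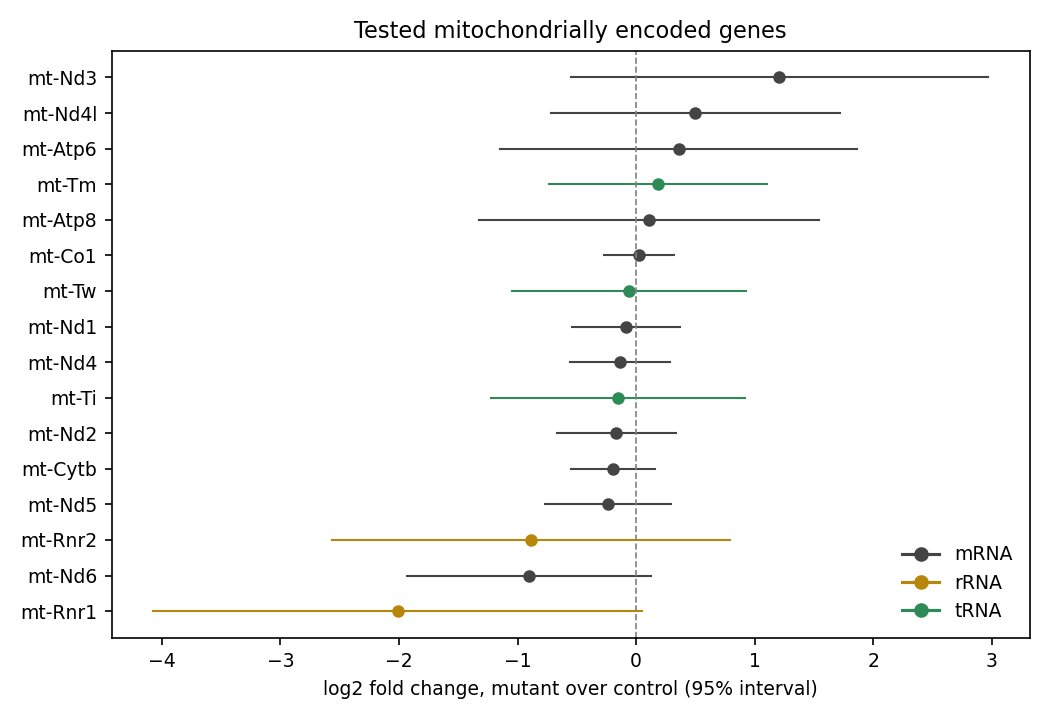
Log2 fold change, mutant over control, of the 16 tested mitochondrial genes with 95% intervals from edgeR's fit, coloured by class. Every interval includes 0; the narrowest belongs to mt-Co1 (-0.27 to 0.32) and the widest to mt-Rnr1 (-4.07 to 0.05).

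Best measured was mt-Co1, with 1867, 1405 and 1955 CPM in mutants and 1532, 1801 and 1805 CPM in controls. The log2 fold change was 0.02 ± 0.13 (SE), with a 95% interval from -0.27 to 0.32. Of the other mRNAs at 50 CPM or more, mt-Atp8 lay above 0 and the remaining 5 below. For mt-Cytb the mutants had 689, 565 and 578 CPM and the controls 585, 884 and 629 CPM, or -0.19 ± 0.16 (SE). The complex I mRNA mt-Nd1 had 701, 429 and 618 CPM in mutants and 533, 780 and 538 CPM in controls, or -0.08 ± 0.20 (SE). The values were -0.13 ± 0.19 for mt-Nd4, -0.17 ± 0.22 for mt-Nd2 and -0.24 ± 0.23 for mt-Nd5 (log2, SE). In each of these 5 mRNAs control replicate 2 was the highest library, and without it the values were 0.01 for mt-Cytb, 0.12 for mt-Nd1, 0.09 for mt-Nd4, 0.11 for mt-Nd2 and 0.03 for mt-Nd5.

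The lowest fold changes belonged to RNAs with few counts. The reverse-strand mRNA mt-Nd6 had 7.10, 3.78 and 4.39 CPM in mutants and 8.18, 16.6 and 4.16 CPM in controls, or -0.90 ± 0.45 (SE). For mt-Rnr1 the value was -2.01 ± 0.91 and for mt-Rnr2 -0.88 ± 0.71 (log2, SE). All 3 rested on control replicate 2: without it they were -0.27, -0.42 and 0.15.

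At the other end stood mRNAs that are mostly covered by nuclear copies. The complex I mRNA mt-Nd3 had 0.527, 3.39 and 1.11 CPM in mutants and 0.150, 0.527 and 1.40 CPM in controls, or 1.21 ± 0.77 (SE). A single library, mutant replicate 2, was the highest, and without it the value was 0.19. Without control replicate 3 it was 2.37. The values were 0.50 ± 0.54 for mt-Nd4l and 0.36 ± 0.66 for mt-Atp6 (log2, SE). Leaving out control replicate 1 gave 0.08 for mt-Nd4l and -0.11 for mt-Atp6, and leaving out control replicate 3 gave 1.11 for mt-Nd4l and 1.66 for mt-Atp6. With mutant replicate 2 left out, mt-Nd4l was at 0.11 and mt-Atp6 at -0.00192. The mRNA mt-Atp8 had 140, 35.7 and 121 CPM in mutants and 76.8, 159 and 40.5 CPM in controls, or 0.11 ± 0.61 (SE). Its low libraries, mutant replicate 2 and control replicate 3, were those of their genotype in which mt-Nd3, mt-Nd4l and mt-Atp6 were highest. The tRNAs had -0.15 ± 0.47 (mt-Ti), 0.19 ± 0.41 (mt-Tm) and -0.06 ± 0.43 (mt-Tw).

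Libraries of the same genotype differed from each other. Among the 11 members with a mean of at least 1 CPM, control replicate 2 was the highest library for 9 and mutant replicate 2 the lowest for 7. The 7 members at 50 CPM or more differed 1.39-fold to 4.45-fold between their highest and lowest library, with a median of 1.82-fold. Over the 4989 nuclear genes at 50 CPM or more the median was 1.24-fold. The median deviation of the 6 mRNAs with little shared sequence from their mean over libraries was 0.26, -0.48 and -0.13 log2 units in mutant replicates 1, 2 and 3 and -0.11, 0.56 and -0.22 in control replicates 1, 2 and 3. These mRNAs are poor in G and C (31.9% to 39.1%). The 1113 nuclear genes in the same range of GC content deviated by 0.09, -0.32 and 0.10 in mutants and 0.14, 0.14 and -0.11 in controls. Mutant replicate 2 was the lowest library in both sets, and control replicate 2 stood as high as control replicate 1 among the nuclear genes but well above it among the mitochondrial ones. With the GC trend of each library removed, an alternative added after seeing the data, the median log2 fold change of the 11 mRNAs was 0.01. Apart from that value, the part of GC content was not tested.

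**Figure D4:**
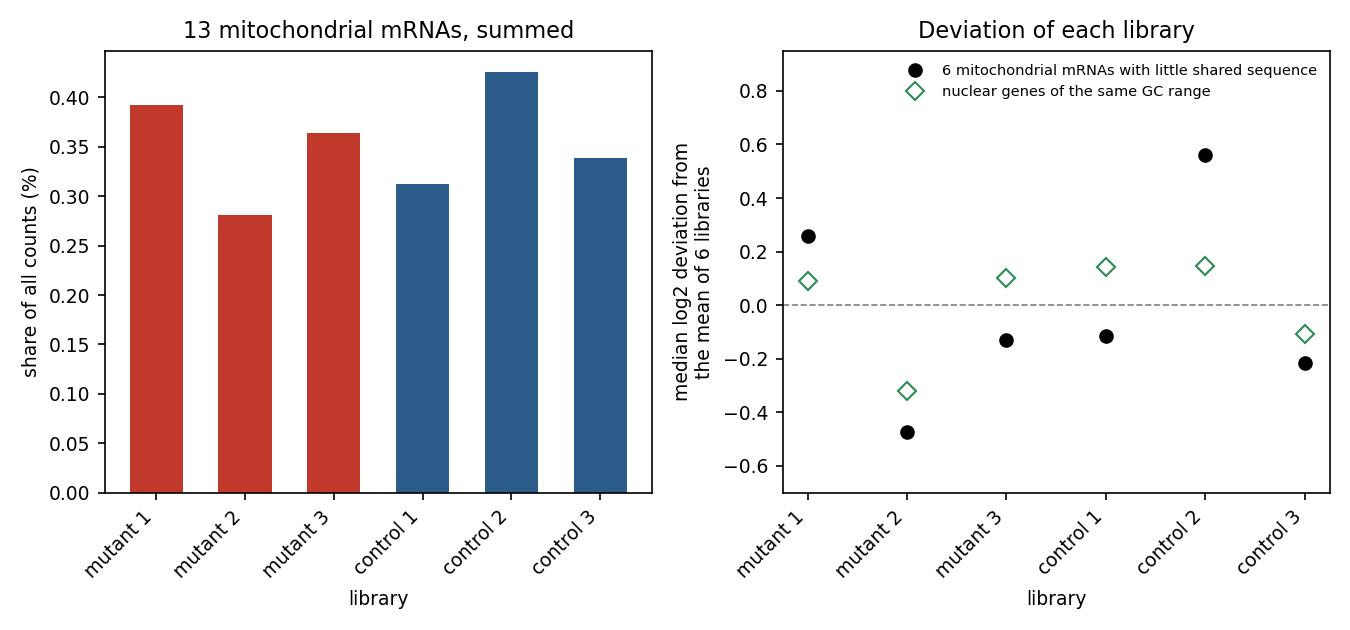
Left, share of all counts that fell on the 13 mitochondrial mRNAs in each library, in percent. Right, median log2 deviation from the mean of the 6 libraries for the 6 mitochondrial mRNAs with little shared sequence (filled) and for 1113 nuclear genes of the same GC range (open); mutant replicate 2 is lowest in both sets, and control replicate 2 is at 0.56 for the mitochondrial mRNAs and 0.14 for the nuclear genes.

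The nuclear genes that maintain and read the mitochondrial genome lay close to 0. Of 19 genes for mitochondrial DNA replication and transcription, 0 were called, 10 lay above 0 and 9 below, and the median log2 fold change was 0.01. Tfam, which packages mitochondrial DNA and activates its promoters, had 46.3, 43.4 and 52.6 CPM in mutants and 43.2, 45.1 and 47.5 CPM in controls, or 0.06 ± 0.10 (SE). The smallest unadjusted p in that list belonged to the terminator factor gene Mterf1a at -0.21 ± 0.14, followed by the helicase gene Twnk at -0.15 ± 0.11, Mterf1b at 0.41 ± 0.31 and Mterf3 at -0.10 ± 0.10 (log2, SE). The groups did not overlap for Mterf1a, as for 6.89% of all tested genes in either direction. It was picked for its small p, so its lack of overlap adds nothing. The genes Mterf1a and Mterf1b are close copies of each other, and how reads were divided between them is uncertain.

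Of 42 genes for processing, modifying and stabilising mitochondrial RNA, 0 were called, 29 lay above 0 and 13 below, and the median was 0.03. The smallest p belonged to Ngrn, needed for the stability of the large mitochondrial rRNA, with 24.5, 27.0 and 26.6 CPM in mutants and 24.0, 21.6 and 22.6 CPM in controls, or 0.20 ± 0.10 (SE). The mutants lay above the controls without overlap for Ngrn, Trmt10c and Gtpbp3. Groups did not overlap for 6.89% of all tested genes in either direction. These genes were picked from the list for their small p, so their lack of overlap adds nothing and is not to be set against that share. Trmt10c and Hsd17b10, both subunits of the enzyme that cuts the 5' ends of mitochondrial tRNAs, had 0.17 ± 0.10 and 0.21 ± 0.14, and the tRNA modification gene Gtpbp3 had 0.17 ± 0.10 (log2, SE). The summed level of the processing list ran from 1210 to 1294 CPM in mutants and from 1165 to 1273 CPM in controls.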

How the data were processed

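Per the labels' protocols, total RNA was depleted of ribosomal RNA, made into strand-marked libraries and sequenced single-end, although the molecule field reads polyA RNA. The submitters' processing notes name HISAT2 on GRCm38 (release 93), SAMtools 1.9 and HTSeq 0.9.1. The authors deposited raw counts for Ensembl genes, 1 column per library. Of the HTSeq step, the mode, the strand setting and the handling of multiply mapped reads were not given in the sources used here. Of 33084 identifiers, 32888 had a symbol in GENCODE M21.

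Counts were fitted with edgeR 4.0.16 in R 4.3.3 (TMM, filterByExpr at 10 counts and 15 in total, robust quasi-likelihood test, threshold 0.05). DESeq2 1.42.0, limma 3.58.1, other scalings, a replicate block, a term for replicate 3 and leaving out libraries were alternatives. The submitters named FCROS, which was not used here. Standard errors are the fold change divided by the root of F, and 95% intervals use the matching t quantile. Sums over members have no test. Floors of 3 counts cover counting error only. In simulated counts of this comparison (19345 genes), 84% of genes changed 2-fold and 29% of those changed 1.5-fold were recovered. The changed genes were drawn at random, leaving out the lowest levels, and the simulation held nothing shared by libraries of the same replicate number. These shares do not describe the tested mitochondrial genes, whose median SE was 0.44 against 0.155 for all tested genes. Figures used matplotlib 3.10.9.

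The members and lists were chosen with earlier results of these data known. Named genes were all mRNAs and rRNAs, the 5 tRNAs with the highest mean CPM, Dyrk1a, nuclear copies of members, and up to 4 genes per list with the smallest p; Tfam and Hbb-y were added after their values were seen. Marker lists not mentioned in the text overlapped between genotypes in summed level. The labels do not say whether replicate numbers pair the samples, and the main fit did not pair them. The correlation of deviations from the group means was 0.24, 0.07 and 0.36 for numbers 1, 2 and 3. Between unlike numbers it ran from -0.47 (mutant replicate 1, control replicate 3) to 0.35 (mutant replicate 1, control replicate 2). These values do not settle the pairing.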

Additional observations from a re-analysis of the deposited data

How the results depend on the processing

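No mitochondrial gene was called under any alternative that gives a test. Over all genes 0 were called under each, except with only the libraries of replicates 1 and 2, where 3 were called, none of them mitochondrial; the cause was not tested. With the replicate number as a block 0 genes were called, and the median of the mitochondrial mRNAs was -0.08. Of 19616 tested genes, 765 then had an unadjusted p under 0.05, against 376 without the block. Without control replicate 3, 1060 of 19873 tested genes had an unadjusted p under 0.05 (edgeR), 4 of them mitochondrial. How many mitochondrial genes were tested in that setting is not given here, so the 4 are not read as a result.

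Leaving out 1 library, the median log2 fold change ran from -0.23 to 0.11 for the mRNAs, from -0.18 to 0.32 for the tRNAs, from -0.01 to 0.07 for the transcription list and from 0.00285 to 0.07 for the processing list. The difference in share of counts ran from -0.037 to 0.0198 percentage points for mRNAs, from -0.00292 to 0.00015 for rRNAs and from -7.79e-05 to 1.19e-05 for tRNAs. Within replicate 3 the tRNA median was 0.42 and the tRNA share differed by 4.63e-05 points; without a filter on low counts the tRNA median was -0.57.

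Most single genes changed sign under some alternative. Leaving out 1 library gave -0.0525 to 0.0516 for Dyrk1a, -0.11 to 1.66 for mt-Atp6, -0.24 to 0.75 for mt-Atp8, -0.0643 to 0.16 for mt-Co1, -0.31 to 0.00917 for mt-Cytb, -0.23 to 0.12 for mt-Nd1, -0.36 to 0.11 for mt-Nd2, 0.19 to 2.37 for mt-Nd3, 0.08 to 1.11 for mt-Nd4l, -1.26 to -0.27 for mt-Nd6, -2.53 to -0.42 for mt-Rnr1, -0.30 to 0.0888 for mt-Nd4, -0.44 to 0.0275 for mt-Nd5, -1.63 to 0.15 for mt-Rnr2, -0.56 to 0.26 for mt-Ti, -0.16 to 0.38 for mt-Tm and -0.33 to 0.38 for mt-Tw. Within replicate 3 alone, with no test, the sign turned for Dyrk1a (0.0131), mt-Atp6 (-1.36), mt-Nd1 (0.20), mt-Nd2 (0.0401), mt-Nd3 (-0.32), mt-Nd4l (-0.39), mt-Nd5 (0.13), mt-Nd6 (0.0745), mt-Ti (0.97), mt-Tm (-0.51) and mt-Tw (0.42). It also turned with only replicates 1 and 2 for mt-Atp8 (-0.42) and mt-Co1 (-0.0228), where mt-Nd3 was at 2.60 with the same sign, with the GC trend removed, chosen after seeing the data, for mt-Nd1 (0.00204), mt-Nd4 (0.0074) and mt-Ti (0.14), and in limma-voom for mt-Ti (0.0716) and mt-Tw (0.0481). Restricting the median to the 6 mRNAs with little shared sequence, also chosen after seeing the data, gave -0.18. For single genes the cause was not tested.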
